A study of Mus musculus with 14 samples.

Results

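Potassium channel genes outside the Kv4 group were followed in hearts of mouse embryos that lacked Irx3, Irx5 or both. The members are all genes whose symbol starts with Kcn, except the Kv4 pore subunits (Kcnd) and their binding partners (Kcnip). They were 84 of 19931 genes measured, with 87 probe sets, and the probe set with the highest mean signal stood for each gene. Irx3 and Irx5 encode homeodomain transcription factors of the Iroquois family, and by its title the study asked how both act, together or against each other, in the forming heart and after birth. RNA of E12.5 hearts was measured on Affymetrix Mouse Gene 1.0 ST arrays, 14 in all. The reference was Irx5+/- (3 arrays), heterozygous for Irx5. The other groups were Irx3-/-;Irx5+/- (4 arrays), which lacks Irx3 and keeps 1 Irx5 allele, Irx5-/- (3 arrays), and Irx3-/-;Irx5-/- (4 arrays), which lacks both genes. Every group therefore carried at least 1 mutant Irx5 allele, and no wild-type heart is in the comparison. The labels name no promoter or cell type for these mutations. They also leave unsaid if arrays come from separate embryos, so the spread behind each p-value is that of these samples alone and may be technical.

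Potassium channels set the resting potential of heart muscle and end each action potential. Voltage-gated (Kv) pores, which include the ERG and KCNQ families, open on depolarization. Their accessory subunits tune gating, and electrically silent subunits conduct only when joined to another Kv pore. Inward rectifiers (Kir) hold the resting potential, and some respond to acetylcholine or to a fall in ATP. Two-pore-domain channels leak potassium at all voltages, and calcium- or sodium-activated channels couple the potassium current to other ions. In the heart, Kcnh2 and Kcnq1 with Kcne1 carry the delayed rectifier currents, and Kcnj2 the classical inward rectifier.

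No potassium channel gene passed the test in any comparison. The test was limma with Benjamini-Hochberg adjustment over all 19931 genes, called at an adjusted p under 0.05. In double mutants against Irx5+/-, 0 of 84 members passed, against 0.0201% of all genes, and the smallest adjusted p among members was 0.125 (Kcnc2, limma). The genes that stood out by unadjusted p were Kcnc2, Kcnt2, Kcnh7, Kcne3, Kcnj2 and Kcne1l. Among them Kcnc2 lay lower in all mutant groups than in the reference, and Kcnh7, Kcnj2 and Kcne1l lay higher in double mutants. Signals below are log2 intensities, so a difference of 1 is a doubling, and most differences are given with their standard error.

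Sequences before a transcription start of the 5 genes below are shown because Irx3 and Irx5 bind DNA and these genes had small unadjusted p-values. Each is the stretch of 250 bases before an annotated transcription start, from RefSeq on GRCm38.p6, written 5′ to 3′ on the gene's strand. The annotated genes Kcnc2, Kcnt2 and Kcne3 begin earlier, at 112269898, 140245657 and 100176507. Their stretches therefore lie partly inside the gene and are not purely upstream sequence. Capitals mark CCAAT or its reverse complement ATTGG, the box that nuclear factor Y recognizes.
Kcnc2, chr10:112269767-112270016, plus strand: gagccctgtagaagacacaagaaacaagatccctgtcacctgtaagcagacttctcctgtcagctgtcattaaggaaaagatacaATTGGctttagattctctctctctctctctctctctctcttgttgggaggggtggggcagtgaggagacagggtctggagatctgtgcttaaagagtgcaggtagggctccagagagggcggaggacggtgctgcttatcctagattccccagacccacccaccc
Kcnt2, chr1:140245468-140245717, plus strand: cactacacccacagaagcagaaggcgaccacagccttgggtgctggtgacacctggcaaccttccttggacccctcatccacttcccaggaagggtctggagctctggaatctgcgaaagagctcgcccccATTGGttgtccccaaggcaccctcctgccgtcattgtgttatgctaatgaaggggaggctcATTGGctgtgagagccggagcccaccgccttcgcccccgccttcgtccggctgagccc
Kcnh7, chr2:63184288-63184537, minus strand: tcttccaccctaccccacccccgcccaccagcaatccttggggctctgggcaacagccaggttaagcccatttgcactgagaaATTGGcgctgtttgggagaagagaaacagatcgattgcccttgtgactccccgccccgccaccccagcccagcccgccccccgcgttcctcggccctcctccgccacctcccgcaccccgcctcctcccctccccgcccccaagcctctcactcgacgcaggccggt
Kcne3, chr7:100176420-100176669, plus strand: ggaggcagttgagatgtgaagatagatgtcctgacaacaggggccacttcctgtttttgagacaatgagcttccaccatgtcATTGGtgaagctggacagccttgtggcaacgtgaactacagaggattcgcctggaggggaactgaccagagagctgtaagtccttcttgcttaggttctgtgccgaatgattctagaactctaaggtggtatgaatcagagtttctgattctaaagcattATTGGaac
Kcnj2, chr11:111065914-111066163, plus strand: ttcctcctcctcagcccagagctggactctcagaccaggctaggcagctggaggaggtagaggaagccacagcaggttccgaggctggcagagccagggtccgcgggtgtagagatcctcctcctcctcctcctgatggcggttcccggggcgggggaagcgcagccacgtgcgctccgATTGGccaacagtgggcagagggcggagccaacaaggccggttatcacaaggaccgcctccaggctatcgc
The stretch before Kcne3 had the lowest GC content of the 5, at 46.8%, and Kcnh7 the highest, at 67.6%. CG pairs numbered 3 before Kcne3 and 16 before Kcnh7. The sequence shown is 1 of 4 starts for Kcnc2 and 1 of 2 for Kcne3, and Kcnt2, Kcnh7 and Kcnj2 have 1 start each in that table.

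The Iroquois family recognizes the palindrome ACANNTGT, which reads the same on both strands. It was not found in any of the 5 stretches above. In windows of 300 bases, which run 50 bases past the start, it was found in 5 of 83 windows (6.02%) of the 63 members with an entry, and in 7.38% of all 32851 windows. CCAAT or ATTGG was found in 27.7% of member windows and in 37.4% of all windows. The ACANNTGT matches belonged to Kcna7, Kcne3, Kcnmb1, Kcnk5 and Kcnk16. The matches of Kcne3, which stood out in the expression data, and of Kcna7, for contrast, are shown with the match in capitals.
Kcne3, chr7:100176694-100176719, plus strand: tcctgacagggACAGTTGTtgctccc
Kcna7, chr7:45405717-45405746, plus strand: tgtggtggtacACATCTGTcatcccagcaa
The Kcne3 match begins 36 bases after the start, and the Kcna7 match begins at position -232 from it. A match is only a description of these letters.

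Array medians ran from 7.89 to 7.99, and arrays correlated with each other at 0.953 to 0.986 over genes. Irx3 itself read a mean of 8.47 ± 0.05 (SD, n = 3) in Irx5+/-, 7.97 ± 0.14 (SD, n = 4) in Irx3-/-;Irx5+/-, 8.19 ± 0.06 (SD, n = 3) in Irx5-/- and 7.73 ± 0.11 (SD, n = 4) in double mutants. The Irx5 signal overlapped between all groups, with means between 8.04 and 8.32. The sources used here do not tell if these probe sets lie inside the deleted parts. The free-text description of Irx3-/-;Irx5+/- replicate 4 names another genotype, Irx5-/-, while its title, source and genotype fields agree on Irx3-/-;Irx5+/-, which was used. Cardiomyocyte markers (18 of 18 measured) were bright throughout, and their mean ran from 10.27 to 12.12 over the 3 reference arrays and from 12.09 to 12.58 in double mutants. Irx5+/- replicate 3 was the lowest at 10.27, and Irx5-/- replicate 2 the highest at 12.70. The mean ran from 11.60 to 12.44 in Irx3-/-;Irx5+/- and from 11.68 to 12.70 in Irx5-/-. All 18 markers lay above 0 in each mutant group against Irx5+/-. The medians were 0.95 in Irx3-/-;Irx5+/-, 0.94 in Irx5-/- and 1.22 in double mutants. In that order 10, 6 and 16 of them had an unadjusted p under 0.05 (limma), though 0 passed after adjustment. The shares of all genes were 5.07%, 10.6% and 13.5%. Of genes brighter than the median gene, 47%, 39.5% and 43.5% lay below 0, in the same order. Endothelial and endocardial markers (16 of 16) had means from 10.48 to 10.82 in the reference, 10.22 to 10.70 in Irx3-/-;Irx5+/-, 9.69 to 10.02 in Irx5-/- and 9.40 to 10.37 in double mutants. All 16 lay below 0 in Irx5-/- and in double mutants against Irx5+/-, with medians of -0.71 and -0.74. Of all genes 55.6% and 56.1% did. Of the 16, 13 and 14 had an unadjusted p under 0.05 (limma), against 10.6% and 13.5% of all genes, though 0 passed after adjustment. In Irx5-/- and double mutants Kcnc2, Kcnt2 and most two-pore-domain genes also lay lower, as given below. Kcnc2 lay lower in Irx3-/-;Irx5+/- as well, at -0.50. In that group 15 of the 16 endothelial and endocardial markers lay below 0, with a median of -0.15. An unadjusted p under 0.05 (limma) was reached by 2 of them, both lower. A relation between endothelial signal and these genes was not tested. The mean of the neural markers (8 of 10 measured) ran from 7.31 to 7.66 over the arrays, and single markers averaged from 6.53 (Elavl4) to 8.54 (Sox10). Of 8 epicardial markers, 7 lay above 0 and 1 below in double mutants against Irx5+/-, with a median of 0.46. An unadjusted p under 0.05 (limma) was reached by 3 of them, all higher, and 0 passed after adjustment. Their relation to the member genes was not tested. In whole-heart RNA, fewer cells of a type and less RNA per cell cannot be told apart.

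The 84 genes gave dim signals, which limits what the arrays can show. Their mean signal over all arrays had a median of 7.56, against 8.07 for all genes, and 23 of 84 members lay above the median gene. The brightest was Kcnj13, an inward rectifier best known from epithelia, at 9.46, and the dimmest Kcns2, a silent subunit, at 6.33. Kcng1, Kcnk6, Kcnk15 and Kcnh2 completed the 5 brightest, and Kcnu1, a sperm channel gene, joined Kcns2 as the dimmest pair. Signals of different probe sets depend on their probes and do not rank transcript levels.

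**Figure D1:**
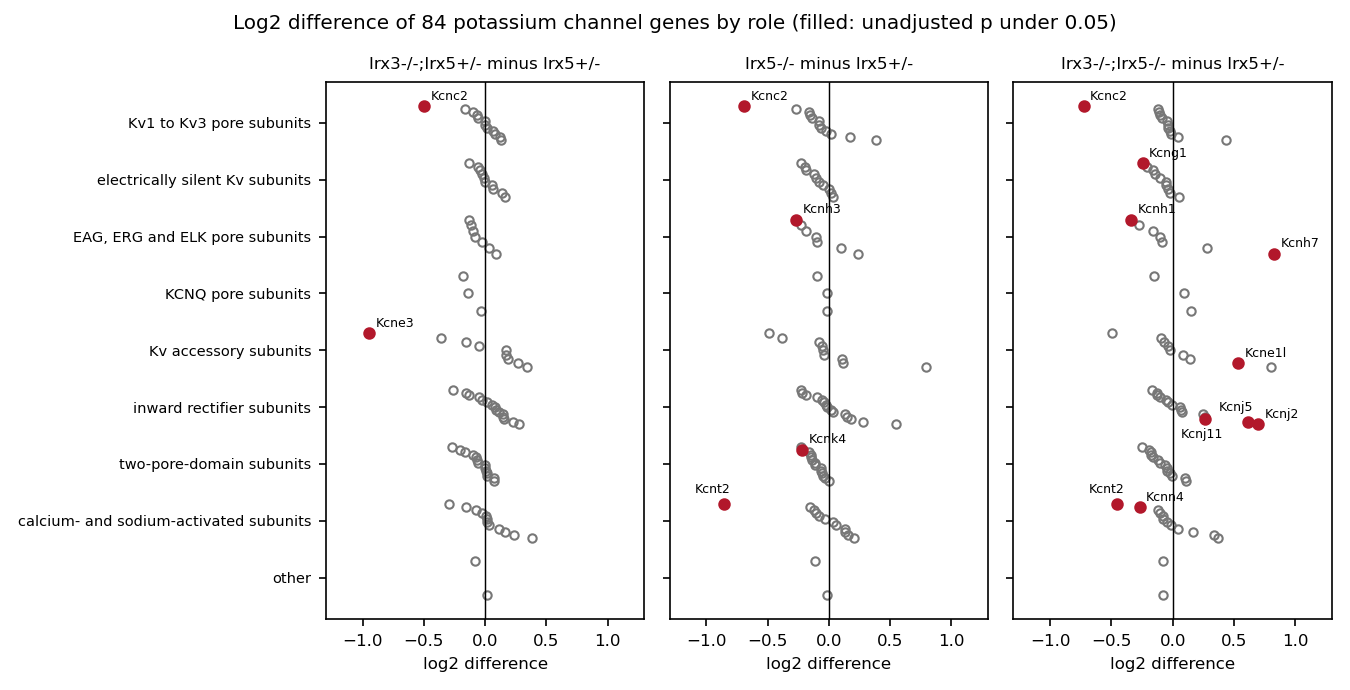
Log2 difference (x axis) of each of the 84 genes in 3 comparisons with Irx5+/-, 1 panel each, with genes in rows by role. Filled and named points have an unadjusted limma p under 0.05, and Kcnc2 is the named point furthest below 0 in the right panel, at -0.73.

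Against the reference, most member differences were small. In double mutants, 10 of 84 members had an unadjusted p under 0.05, 5 higher and 5 lower, against 13.5% of all genes (7.9% higher and 5.56% lower). Without Irx5+/- replicate 2 the count was 3 higher and 1 lower, and without Irx5+/- replicate 3 it was 3 higher and 3 lower. The median member difference was -0.05, against -0.03 for all genes, and 59 of 84 members lay below 0, against 56.1% of all genes. In Irx5-/-, 0 of 84 members passed at the adjusted threshold, against 0% of all genes. There 4 members had an unadjusted p under 0.05, all lower, against 10.6% of all genes (5.99% higher and 4.66% lower), and 60 of 84 lay below 0, against 55.6%. The count was 2 higher and 6 lower without Irx5+/- replicate 1, and 0 higher and 2 lower without Irx5+/- replicate 2. In Irx3-/-;Irx5+/-, again 0 members passed against 0% of genes. Here 2 members, Kcnc2 and Kcne3, had an unadjusted p under 0.05, both lower, against 5.07% of all genes (2.85% higher and 2.22% lower), and the members split evenly, with 42 below 0 against 50% of genes. The 3 comparisons share the reference arrays. For fits that left out an array, the share of all genes is not given, here and below. Changes in those counts therefore cannot be called particular to the members.

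A gene's groups do not overlap when every array of one lies above every array of the other. In double mutants this held for 4 members on the higher side (Kcnh7, Kcnj2, Kcne1l and Kcnj11), against 6.48% of all genes, and for 2 on the lower side (Kcnc2 and Kcng1), against 5.58%. In Irx5-/- it held for 0 higher members, against 6.71% of genes, and 9 lower ones, against 9.52%. The 9 were Kcna2, Kcnc2, Kcnh3, Kcnj14, Kcnk4, Kcnk13, Kcnn4, Kcns1 and Kcnt2. In Irx3-/-;Irx5+/- it held for 1 higher member, the vascular ATP-sensitive pore Kcnj8, against 2.86% of genes, and 3 lower ones, Kcne3, Kcnj10 and Kcnk18, against 2.87%.

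Over all genes, the share below 0 differed with brightness. Among genes dimmer than the median gene, 71.8% lay below 0 in Irx5-/- and 68.6% in double mutants, against 39.5% and 43.5% of brighter genes. Of the 61 dim members, 43 lay below 0 in Irx5-/- and 44 in double mutants. Of the 23 bright members, 17 and 15 did. Only 1 of the 84 members lay above the 75th percentile of all genes, so the bright members are not matched in brightness to all bright genes. Their share below 0 was not tested against that of other genes. Renewed quantile normalization left 50 of 84 members below 0 in Irx5-/- and 49 in double mutants. The median over all genes went from -0.028 to -0.021 and from -0.028 to -0.016 there. Centring arrays on their medians put 51 in place of 42 members below 0 in Irx3-/-;Irx5+/-, where the median over all genes went from 0.000 to -0.017. The share of all genes below 0 is not given for these settings, here and below.

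**Figure D2:**
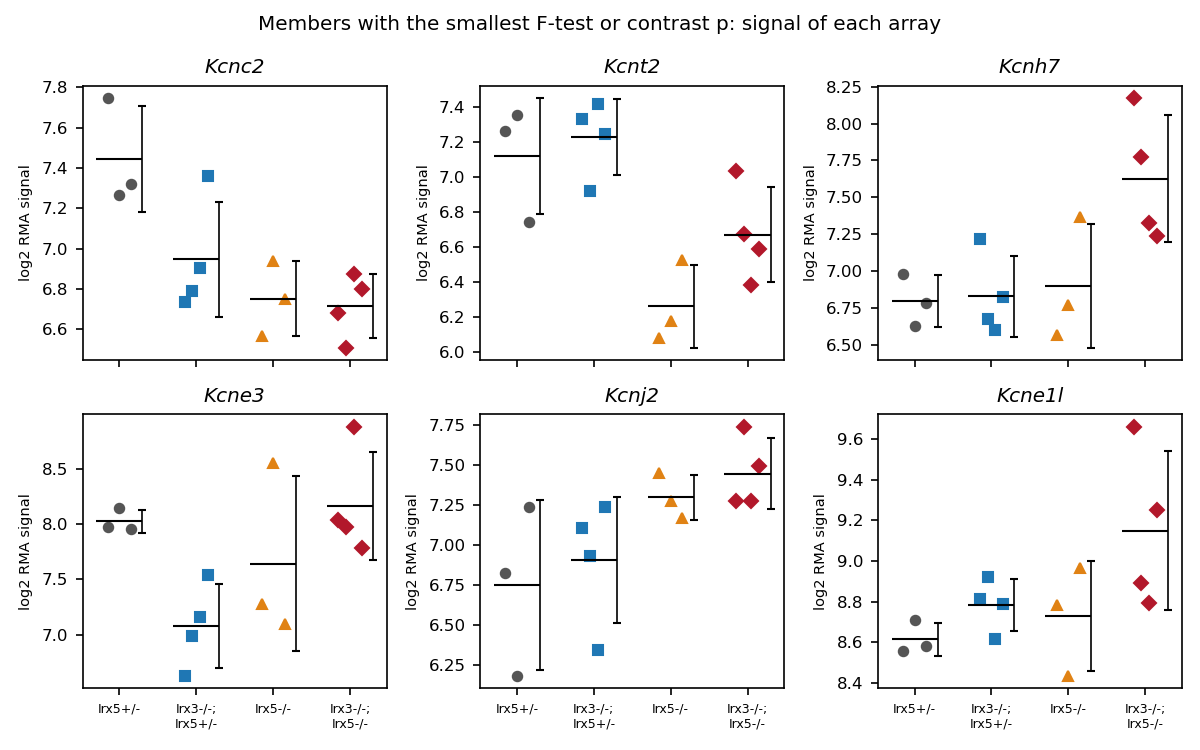
Log2 signal (y axis) of 6 genes in each array, by genotype group (x axis), with the group mean as a line and the SD as a bar. All 4 double mutant arrays lie below the 3 reference arrays for Kcnc2, with a highest value of 6.88 against a lowest of 7.27, and above them for Kcnh7, Kcnj2 and Kcne1l.

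Of the Kv1 to Kv3 pore subunits, 12 of 14 were measured and 10 lay below 0 in double mutants, with a median of -0.04. Of all genes 56.1% lay below 0 there, and 68.6% of those dimmer than the median gene. Kcnc2 encodes Kv3.2, a fast-deactivating pore best known from rapidly firing neurons. Its signals were 7.75, 7.27 and 7.32 in Irx5+/-, 6.74, 6.79, 6.90 and 7.36 in Irx3-/-;Irx5+/-, 6.57, 6.94 and 6.75 in Irx5-/-, and 6.68, 6.51, 6.88 and 6.80 in double mutants. Every Irx5-/- and double mutant array lay under every reference array, while replicate 4 of Irx3-/-;Irx5+/- fell inside the reference range. The difference from the reference was -0.50 ± 0.17 (SE) in Irx3-/-;Irx5+/-, -0.69 ± 0.18 (SE) in Irx5-/- and -0.73 ± 0.17 (SE) in double mutants, the last a 1.66-fold lower signal. All 3 had an unadjusted p under 0.05, and the adjusted p was 0.876, 0.252 and 0.125 in limma. Between double mutants and Irx5-/- the difference was -0.04 ± 0.17 (SE).

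Kcna4 (Kv1.4) and Kcna5 (Kv1.5) carry a transient outward and an ultrarapid delayed rectifier current in heart muscle. Kcna4 read 8.72, 6.79 and 7.02 in Irx5+/-, and 8.35, 7.18, 8.38 and 7.85 in double mutants. Replicate 1 of the reference lay above all double mutant arrays, and replicates 2 and 3 lay below all of them. Its difference of 0.43 ± 0.47 (SE) became 1.04 without Irx5+/- replicate 1 and 0.07 without Irx5+/- replicate 2. Kcna5 differed by -0.11 ± 0.28 (SE) in double mutants, with 7.52, 8.36 and 7.45 in the reference against 7.53, 7.89, 7.91 and 7.34.

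The 10 electrically silent subunits lay within a narrow band in double mutants, from -0.24 to 0.05, with 9 of 10 below 0 and a median of -0.08. Of all genes 56.1% lay below 0 there, with 68.6% of those dimmer than the median gene and 43.5% of brighter ones. Kcng1 had the only unadjusted p under 0.05 of the silent subunits, against 13.5% of all genes (5.56% lower). It lay at -0.24 ± 0.11 (SE), with an adjusted p of 0.362 in limma. Its reference arrays read 9.08, 9.01 and 8.98, and its double mutant arrays 8.97, 8.78, 8.73 and 8.63. The groups did not overlap, but the gap between 8.98 and 8.97 was small.

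Of the EAG, ERG and ELK pores, 7 of 8 were measured, and 5 lay below 0 in double mutants, against 56.1% of all genes. Kcnh7 encodes an ERG-type pore (Kv11.3) known mainly from the nervous system. Its signals were 6.98, 6.63 and 6.78 in Irx5+/-, 7.21, 6.67, 6.60 and 6.83 in Irx3-/-;Irx5+/-, 6.56, 6.76 and 7.37 in Irx5-/-, and 8.17, 7.77, 7.32 and 7.24 in double mutants. All double mutant arrays lay above both groups that keep an Irx5 allele, and 2 of them above all Irx5-/- arrays. The double mutant difference was 0.83 ± 0.24 (SE) from Irx5+/-, a 1.78-fold higher signal (adjusted p = 0.173, limma). It was 0.80 ± 0.22 (SE) from Irx3-/-;Irx5+/- and 0.73 ± 0.24 (SE) from Irx5-/-, while Irx3-/-;Irx5+/- lay at 0.03 ± 0.24 (SE) and Irx5-/- at 0.10 ± 0.25 (SE) from the reference. Of the 8 neural markers measured, 1 was higher at an unadjusted p under 0.05 in double mutants, Tubb3, and 2 were lower, Ret and Sox10. Of all genes 7.9% were higher and 5.56% lower at that threshold in double mutants against Irx5+/-. Tubb3, a tubulin of neurons, lay at 0.69 ± 0.28 (SE) from Irx5+/- and 0.70 ± 0.26 (SE) from Irx3-/-;Irx5+/-, and Sox10 lay at -0.22 ± 0.09 (SE) from Irx5+/-. The median of the 8 was -0.07, and their part in the Kcnh7 result was not tested.

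Kcnh2, the ERG pore that carries the rapid delayed rectifier in heart, read 8.92, 8.51 and 8.65 in Irx5+/- and 8.74, 8.79, 9.28 and 9.09 in double mutants. The groups overlapped, and the difference was 0.28 ± 0.20 (SE). Kcnh1, an EAG pore, lay at -0.34 ± 0.12 (SE) in double mutants (adjusted p = 0.26, limma). Kcnh3, an ELK pore, lay at -0.27 ± 0.11 (SE) in Irx5-/- (adjusted p = 0.435, limma). Kcnh8, also of the ELK type, lay at -0.28 ± 0.14 (SE) in double mutants.

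Of the KCNQ pores, 3 were measured. Kcnq1, the pore of the slow delayed rectifier, read 8.36, 8.29 and 8.02 in Irx5+/-, 8.06, 8.45, 8.08 and 8.18 in Irx3-/-;Irx5+/-, 7.71, 8.69 and 7.97 in Irx5-/-, and 7.95, 8.08, 8.31 and 7.93 in double mutants. All groups overlapped, and the double mutant difference from the reference was -0.15 ± 0.20 (SE). Kcnq3, a pore of the neuronal M current, lay 0.23 ± 0.09 (SE) higher in double mutants than in Irx3-/-;Irx5+/- (adjusted p = 0.597, limma).

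The list of accessory subunits held 10 symbols for 9 genes, as Kcne1l and Kcne5 name the same gene, and all 9 were measured. In double mutants 5 lay below 0, against 56.1% of all genes. Kcne3 had the largest difference of any member in Irx3-/-;Irx5+/- and in the interaction. It encodes a small single-pass subunit that keeps Kcnq1 channels open in epithelia. Its signals were 7.97, 8.15 and 7.95 in Irx5+/-, 6.63, 6.99, 7.16 and 7.53 in Irx3-/-;Irx5+/-, 7.28, 8.55 and 7.10 in Irx5-/-, and 8.03, 7.97, 8.88 and 7.78 in double mutants. The Irx3-/-;Irx5+/- arrays lay under every reference and every double mutant array. Irx5-/- was split, with replicate 2 high and replicates 1 and 3 low.

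For Kcne3, loss of Irx3 gave differences of opposite sign with and without an Irx5 allele. In hearts with 1 Irx5 allele the difference was -0.95 ± 0.33 (SE), a 1.93-fold lower signal (adjusted p = 0.887, limma). In hearts with no Irx5 allele it was 0.52 ± 0.33 (SE). The interaction, which is the second minus the first, was 1.47 ± 0.47 (SE), with an adjusted p of 1 in limma. It was the only member with an unadjusted interaction p under 0.05, against 4.04% of all genes (1.89% higher), and 0 members passed after adjustment, against 0% of genes. With single arrays left out, the number under 0.05 ran from 1 to 4, the highest without Irx5-/- replicate 2. The share of all genes in those fits is not given. The interaction ran from 1.20 to 1.93 when arrays were left out, the ends being reached without replicates 3 and 2 of Irx5-/-. Between double mutants and Irx3-/-;Irx5+/- the difference was 1.09 ± 0.31 (SE), or 2.13-fold, with an adjusted p of 0.465 in limma.

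Kcne1l (Kcne1-like, also called Kcne5) dampens Kcnq1 currents. It read 8.55, 8.71 and 8.58 in Irx5+/-, 8.81, 8.92, 8.61 and 8.79 in Irx3-/-;Irx5+/-, 8.79, 8.43 and 8.96 in Irx5-/-, and 9.66, 8.89, 8.79 and 9.25 in double mutants. Double mutants did not overlap the reference but overlapped both single mutant groups. The difference was 0.54 ± 0.18 (SE) from Irx5+/- (adjusted p = 0.237, limma).

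Kcne1, the partner of Kcnq1 in the slow delayed rectifier, read 8.57, 7.54 and 7.36 in Irx5+/-, 8.27, 8.44, 7.58 and 8.36 in Irx3-/-;Irx5+/-, 7.74, 10.12 and 7.98 in Irx5-/-, and 8.24, 8.56, 8.84 and 8.86 in double mutants. Irx5-/- replicate 2 stood more than 1 log2 unit above every other array. The Irx5-/- difference of 0.79 ± 0.50 (SE) became 0.04 without that array, and the double mutant difference was 0.80 ± 0.47 (SE). Kcne4 and Kcnab3, an inhibitory and a beta subunit, lay at 0.27 ± 0.18 (SE) and 0.18 ± 0.12 (SE) in Irx3-/-;Irx5+/-.

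All 15 inward rectifiers on the list were measured, and 8 lay above 0 in double mutants, against 43.9% of all genes, with a median of 0.06. Of genes dimmer than the median gene 68.6% lay below 0 there, and 43.5% of brighter ones. An account of signs by brightness within this list was not made. An unadjusted p under 0.05 was reached by 3 of the inward rectifiers, Kcnj2, Kcnj5 and Kcnj11, all higher. Of all genes 7.9% were higher at that threshold, and 13.5% differed in either direction. Kcnj2 (Kir2.1) read 6.83, 6.18 and 7.24 in Irx5+/-, 7.11, 6.93, 6.34 and 7.24 in Irx3-/-;Irx5+/-, 7.45, 7.27 and 7.17 in Irx5-/-, and 7.28, 7.74, 7.27 and 7.49 in double mutants. The double mutants did not overlap either group with an Irx5 allele, though their lowest value of 7.27 was close to the 7.24 of replicate 3 of the reference. The difference was 0.55 ± 0.26 (SE) in Irx5-/- and 0.70 ± 0.24 (SE) in double mutants (adjusted p = 0.24, limma). It depended on the reference arrays, at 0.41 without Irx5+/- replicate 2 and 0.94 without replicate 3.

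Kcnj3 and Kcnj5 (Kir3.1 and Kir3.4) form the acetylcholine-gated channel of the atrium and pacemaker. Kcnj5 read 7.63, 7.04 and 7.12 in Irx5+/-, 7.04, 8.21 and 7.07 in Irx5-/-, and 7.63, 7.86, 7.92 and 8.12 in double mutants. Double mutants touched the reference at 7.63, and the difference was 0.62 ± 0.26 (SE; adjusted p = 0.327, limma). In Irx5-/- it was 0.18 ± 0.28 (SE) and turned to -0.21 without replicate 2 of that group. Kcnj3 differed by 0.27 ± 0.17 (SE) in Irx3-/-;Irx5+/-, 0.28 ± 0.18 (SE) in Irx5-/- and 0.27 ± 0.17 (SE) in double mutants.

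Kcnj11 and Kcnj8 (Kir6.2 and Kir6.1) are pores of ATP-sensitive channels in heart muscle and in vessels. Kcnj11 read 8.09, 8.26 and 8.04 in Irx5+/- and 8.46, 8.30, 8.52 and 8.30 in double mutants, with no overlap, and differed by 0.27 ± 0.12 (SE; adjusted p = 0.343, limma). Kcnj8 differed by 0.24 ± 0.16 (SE) and overlapped. Kcnj12 (Kir2.2), which pairs with Kcnj2, lay at -0.17 ± 0.13 (SE).

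**Figure D3:**
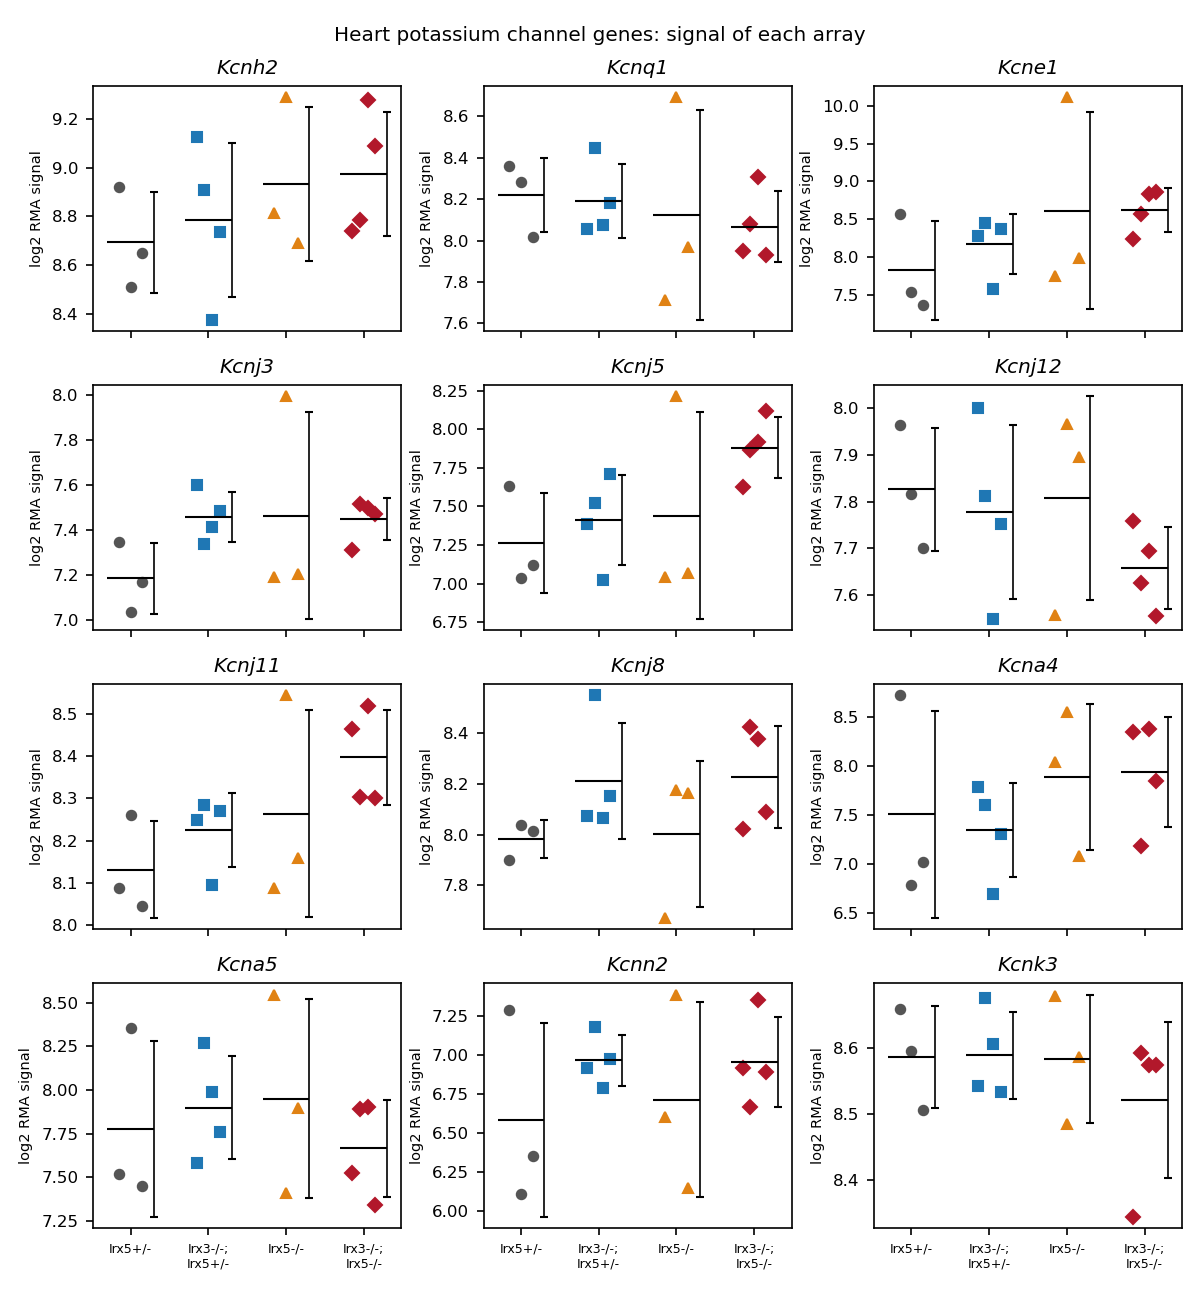
Log2 signal (y axis) of 12 potassium channel genes with known heart currents in each array, by genotype group (x axis), with the group mean as a line and the SD as a bar. Irx5-/- replicate 2 is the highest array for Kcne1 at 10.12 and for Kcnj5 at 8.21, and Kcnk3 stays between 8.34 and 8.68.

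All 14 two-pore-domain channels had differences below 0 in Irx5-/-, with a median of -0.11 and a range from -0.22 to 0.00. Of all genes 55.6% lay below 0 there, with 71.8% of those dimmer than the median gene and 39.5% of brighter ones. The list holds genes of both kinds, and this count of signs was not tested. Of these, 1 gene had an unadjusted p under 0.05, against 10.6% of all genes (4.66% lower), and 0 passed after adjustment. That gene was Kcnk4 (TRAAK), a mechanically gated leak channel, at -0.22 ± 0.10 (SE; adjusted p = 0.457, limma). The count was 13 of 14 after centring or quantile normalization of the arrays, and 10 of 14 without Irx5-/- replicate 2. In double mutants 12 of 14 lay below 0, against 56.1% of all genes, 68.6% of those dimmer than the median gene and 43.5% of brighter ones. Kcnk3 (TASK-1), a leak channel of atrial muscle, had means that differed by 0.00 ± 0.10 (SE) in Irx5-/- and -0.07 ± 0.09 (SE) in double mutants. Kcnk2 (TREK-1), a stretch-sensitive leak channel, lay at 0.11 ± 0.12 (SE) in double mutants.

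Among the 12 calcium- and sodium-activated subunits, Kcnt2 differed most. It encodes Slick, a sodium-activated pore of large conductance. Its signals were 7.26, 7.36 and 6.74 in Irx5+/-, 7.33, 6.92, 7.42 and 7.25 in Irx3-/-;Irx5+/-, 6.08, 6.17 and 6.53 in Irx5-/-, and 7.03, 6.67, 6.38 and 6.59 in double mutants. Every Irx5-/- array lay under every array of both groups that keep an Irx5 allele, while double mutants overlapped the reference. The difference was -0.86 ± 0.20 (SE) in Irx5-/-, a 1.81-fold lower signal (adjusted p = 0.252, limma). It was -0.45 ± 0.19 (SE) in double mutants against the reference and -0.56 ± 0.17 (SE) against Irx3-/-;Irx5+/-. Double mutants lay 0.41 ± 0.19 (SE) above Irx5-/-.

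In the F-test for any difference among the 4 groups, Kcnt2 had the smallest p of the members, with an adjusted p of 0.318 in limma. There 0 of 84 members passed, against 0.00502% of all genes, and 6 members had an unadjusted p under 0.05, against 9.32%. Kcnn2 (SK2), a small-conductance channel of atrial muscle, read 7.29, 6.11 and 6.36 in Irx5+/- and 6.92, 6.67, 7.36 and 6.89 in double mutants, with a difference of 0.37 ± 0.29 (SE). Kcnn4, the intermediate-conductance channel of blood cells and vessels, lay at -0.27 ± 0.10 (SE) in double mutants (adjusted p = 0.277, limma). Kcnma1, the large-conductance pore, differed by -0.04 ± 0.09 (SE). The 2 antisense RNAs Kcnmb4os1 and Kcnmb4os2, named after their partner Kcnmb4, were members by name and both lay below 0 in double mutants, at a median of -0.08.

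Loss of the second Irx5 allele in hearts without Irx3, and loss of Irx3 in hearts without Irx5, were compared directly. In double mutants against Irx3-/-;Irx5+/-, 0 of 84 members passed, against 0.00502% of genes. There 9 members had an unadjusted p under 0.05, 5 higher and 4 lower, against 7.67% of genes (4.06% higher and 3.61% lower). The higher ones were Kcnh7, Kcne3, Kcnq3, Kcnj2 and Kcne1l, and the lower ones Kcnt2, Kcns2, Kcng3 and Kcnk4. Without Irx3-/-;Irx5-/- replicate 4 the count was 4 higher and 1 lower. Groups did not overlap for 5 higher members, against 2.64% of genes, and for 0 lower members, against 2.18%. Below 0 lay 57 of 84 members, against 55.5% of genes. After renewed quantile normalization 44 did, and the median over all genes went from -0.023 to -0.005. In double mutants against Irx5-/-, 0 members passed, against 0% of genes, and 3 had an unadjusted p under 0.05, all higher, against 3.63% of genes (1.5% higher): Kcnh7, Kcne1l and Kcnt2. That count was 0 without Irx5-/- replicate 1, 5 higher and 1 lower without replicate 2, and 5 higher without replicate 3. No member's groups were apart in either direction, against 2.13% of genes higher and 1.98% lower, and 51 of 84 members lay above 0, against 52.8% of genes. Both comparisons share the double mutant arrays, and counts without an array again have no share of all genes beside them.

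The set of genes with known heart currents, 15 of 16 measured, had median differences of 0.09 in Irx3-/-;Irx5+/-, 0.13 in Irx5-/- and 0.27 in double mutants. The medians over all genes were 0.00, -0.03 and -0.03. Heart muscle markers moved with several of these genes. In their correlation with the mean of the 18 cardiomyocyte markers over the 14 arrays, 5 of 84 members (5.95%) had a Pearson r above 0.7, against 4.32% of all genes, and all 5 were in the heart set: Kcne1, Kcnj5, Kcnj3, Kcnn2 and Kcnh2. This relation was examined after earlier results on these data were known.

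Kcne1 had r = 0.80 (permutation p = 0.00177, 0.0529 adjusted over the 84 members by Benjamini-Hochberg) and Spearman's rho = 0.90 (permutation p = 3e-05, adjusted 0.0014). Kcnj5 had r = 0.74 (permutation p = 0.00067, adjusted 0.0529) and rho = 0.84 (permutation p = 0.00032, adjusted 0.00672). Kcnh2 had r = 0.71 (permutation p = 0.00314, adjusted 0.0659) and rho = 0.89 (permutation p = 4e-05, adjusted 0.0014). Without the 2 arrays farthest from the median of the markers, Irx5+/- replicates 2 and 3, r was 0.85, 0.87 and 0.88. After the group means were subtracted, r was 0.81, 0.73 and 0.70. By Pearson's r, 0 of 84 members reached an adjusted permutation p under 0.05. Under -0.7 lay 0 members by r, against 1.54% of all genes. By Spearman's rho 8 members reached an adjusted permutation p under 0.05, 5 positive (the 5 heart genes above) and 3 negative. The share of all genes was not computed for rho, so this count cannot be called particular to the members. The negative ones were Kcnh8 (rho = -0.82, adjusted permutation p 0.00857), Kcna6 (rho = -0.76, adjusted 0.027) and Kcnab1 (rho = -0.75, adjusted 0.0344), an ELK pore, a Kv1 pore and a beta subunit.

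**Figure D4:**
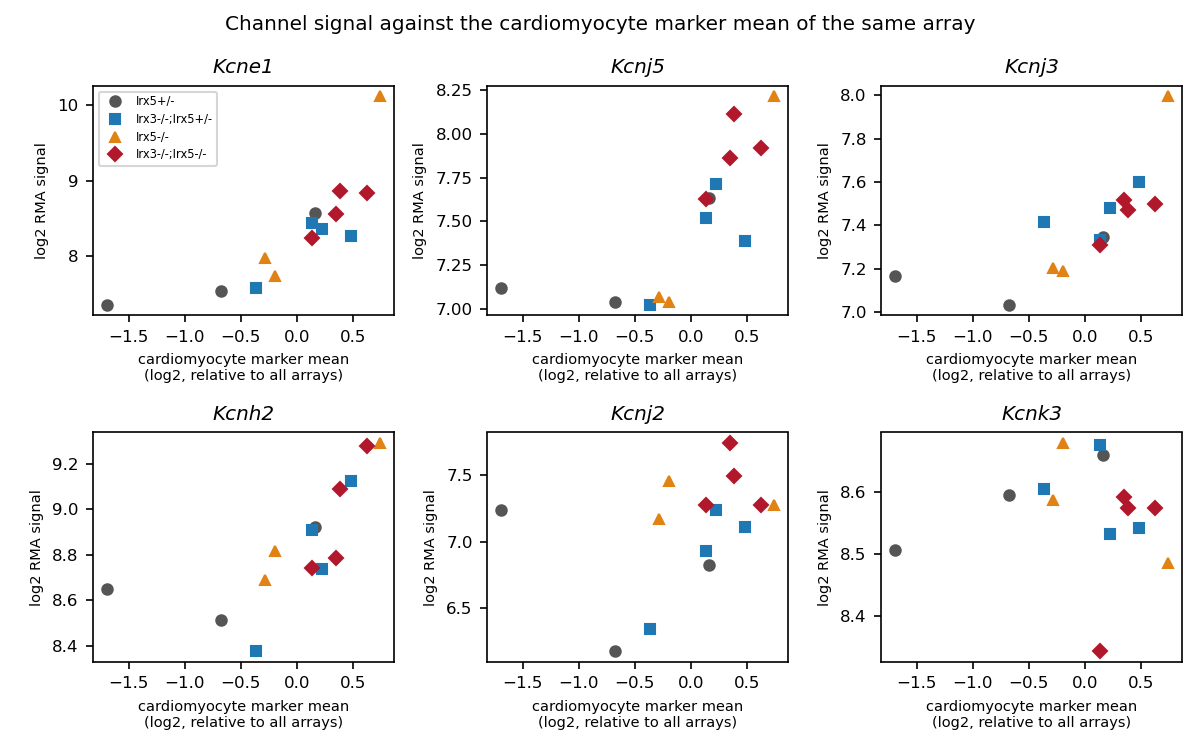
Log2 signal of 6 genes (y axis) against the cardiomyocyte marker mean of the same array, in log2 relative to the average of all arrays (x axis), with 1 point per array and a colour and shape per genotype. Kcne1, Kcnj5, Kcnj3 and Kcnh2 read higher where the marker mean is higher (r from 0.71 to 0.80), while Kcnj2 (r = 0.34) and Kcnk3 (r = -0.03) show no such line.

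With the marker mean of each array as a further term in limma, the heart set's median differences became -0.03, -0.06 and -0.09. In double mutants Kcne1 went from 0.80 to -0.38, Kcna4 from 0.43 to -0.61, Kcnn2 from 0.37 to -0.28 and Kcnh2 from 0.28 to -0.13. Kcnj5 went from 0.62 to 0.04. Kcnj2 stood at 0.73 in place of 0.70, Kcnh7 at 0.81 in place of 0.83, Kcne1l at 0.70 in place of 0.54, and Kcnc2 at -0.96 in place of -0.73. With the term, the adjusted p of Kcnj2, Kcnh7, Kcne1l and Kcnc2 was 0.583, 0.515, 0.435 and 0.204 (limma). Without it, the values were 0.24, 0.173, 0.237 and 0.125. For Kcne1, Kcna4, Kcnn2, Kcnh2 and Kcnj5 it was 0.865, 0.793, 0.862, 0.929 and 0.987 with the term. The 2 arrays with the lowest marker mean are both of the reference, so marker level and genotype are partly bound together here. In this fit 0 members passed.

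**Figure D5:**
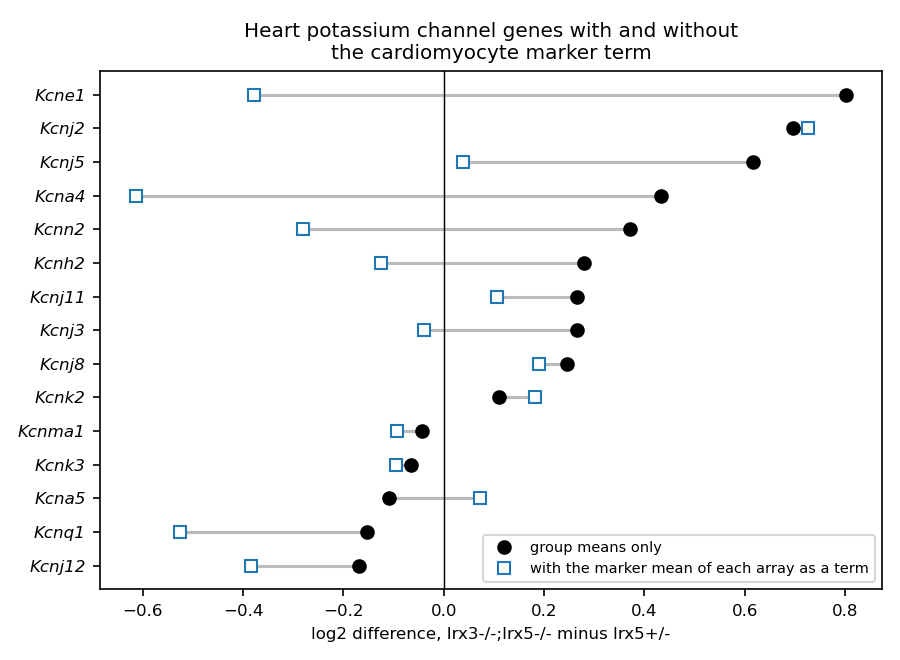
Log2 difference of double mutants minus Irx5+/- (x axis) for the 15 heart set genes (y axis), from group means only (filled circles) and with the cardiomyocyte marker mean of each array as a term (open squares). Kcne1 moves from 0.80 to -0.38, and Kcnj2 from 0.70 to 0.73.

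Genes that act with these channels were read from a list of 26 regulators, anchors and receptors, of which 24 were measured. None passed in any comparison (limma), and 4 of 24 had an unadjusted p under 0.05 in double mutants against Irx5+/-, a comparison in which 13.5% of all genes did. Ank2, Vapa and Gng2 were the higher ones and Rgs4 the lower one. Rgs4 speeds the shut-off of G protein signalling, including that of the Kcnj3 and Kcnj5 channel. It read 9.49, 8.78 and 9.48 in Irx5+/-, 7.29, 7.71, 8.64 and 7.82 in Irx3-/-;Irx5+/-, 9.26, 7.08 and 7.97 in Irx5-/-, and 6.81, 7.32, 7.04 and 7.65 in double mutants. All double mutant and all Irx3-/-;Irx5+/- arrays lay under the reference, and Irx5-/- overlapped it. The double mutant difference was -2.04 ± 0.42 (SE), a 4.13-fold lower signal (adjusted p = 0.111, limma), and -1.46 with the marker term. A fit on the compared arrays alone gave an adjusted p of 0.0367 in limma.

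Ank2, the anchoring protein ankyrin-B, lay at 0.36 ± 0.14 (SE) in double mutants. Chrm2, the muscarinic receptor that opens the Kcnj3 and Kcnj5 channel, lay at -0.93 ± 0.40 (SE) in double mutants against Irx5-/-, with an adjusted p of 1 in limma. Its signals were 8.95, 8.36 and 8.53 in Irx5-/- and 7.05, 7.92, 7.57 and 8.19 in double mutants, with no overlap. Calm3 and Rgs6 lay 0.41 ± 0.18 (SE) and 0.46 ± 0.21 (SE) higher, and Sgk1 at -0.39 ± 0.18 (SE), in double mutants against Irx3-/-;Irx5+/-. Nedd4l lay at 0.49 ± 0.23 (SE) in Irx5-/-.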

How the data were processed

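Per the file headers, RMA in the package affy was run by the authors over all arrays at once and gave a log2 intensity for each probe set. The headers also state that probe sets with no group mean above a log2 floor were removed and that limma was used. Versions and the annotation build were not stated in the labels or headers. No detection calls came with the values.

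Of 28763 probe sets, 21776 had exactly 1 symbol, 1592 had several and 5395 had none. By gene ID, 21685 of those with 1 symbol matched the GRCm38.p6 gene table and 91 did not. The probe set with the highest mean was kept for the 998 genes with several, which left 19931 genes. Values were not scaled further.

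Limma 3.58.1 in R 4.3.3 fitted a mean per group over 14 arrays (10 residual degrees of freedom, 3.50 prior degrees of freedom, median residual SD 0.186), 2-sided, with Benjamini-Hochberg adjustment over all genes at 0.05. The number of arrays limits the precision. Correlations with cardiomyocyte markers used 100000 permutations of all 14 arrays without regard to group. Their p-values therefore also reflect differences between groups, and no p was computed after subtracting group means. Replicate numbers were not treated as pairs.

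Named were the heart set, the 3 members per direction with the smallest p in each comparison, the 5 with the smallest F-test p, the 5 brightest, the 2 dimmest and up to 3 partner genes per comparison. Further genes with an unadjusted p under 0.05 or a motif match were named after their values were seen. The members and lists were chosen with earlier results of these data known. Alternatives left out each array, added a replicate block, fitted only the arrays compared, rescaled the arrays, dropped dim genes, averaged probe sets, changed the variance model or added the marker mean as a term. Protein sequences were not used here. A few genes that fit the naming rule are not reported here.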

Additional observations from a re-analysis of the deposited data

Results flagged for a closer look

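In groups of 4 arrays, 1 array can stand apart from the others by Dixon's criterion. Of 168 pairs of member and group, 5 did, and chance gives about 1 in 20, or 8.40 here. Groups of 3 were not tested.

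Among the genes named above, this held for Kcnk3 in Irx3-/-;Irx5-/- replicate 1, at 8.34 against 8.57 or more in the other 3 arrays. It also held for Kcnu1 in Irx3-/-;Irx5+/- replicate 3, at 6.04 against 6.44 or more in the other 3.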

How the results depend on the processing

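Over 22 alternatives, 14 of which left out an array, the number of members that passed stayed at 0 in each of the 124 counts made, the standard setting included. The smallest adjusted p of a member in any of them was 0.0976 (limma), for Kcnh1 in double mutants against Irx5+/- without Irx5+/- replicate 1. With the replicate block 0 members passed as well, and the median difference in double mutants against Irx5+/- was -0.05. Same-numbered arrays showed little shared deviation (4 of 19 pairs above 0.1, from -0.18 to 0.19). With groups of 3 or 4 arrays this cannot exclude a weak pairing by number. Leaving out 1 array moved that median between -0.09 and -0.03. Named genes had 299 of 4356 alternative differences with the sign turned, 211 of them when an array was left out and 48 with the cardiomyocyte marker term. Rgs4 passed in 1 alternative, given above. Small groups and dim signals limit what these arrays can show, and 0 members called does not show equal expression.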
